A study of Mus musculus with 4 samples.

Results

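Gata2 and Gata3 encode zinc-finger transcription factors, and the peaks around both genes were followed across 4 ATAC-seq libraries of mouse adipose progenitors. In ATAC-seq, a transposase loaded with adapters tags the DNA it can reach, and read pile-ups (peaks) therefore mark open chromatin. Members were chosen by position on mouse build mm9. They were all peaks overlapping chromosome 6 from 88050000 to 88250000 for Gata2, and chromosome 2 from 9680000 to 9900000 for Gata3. These windows held 31 of the 198854 peaks in the 4 lists, and after merging of overlapping peaks 13 of 83319 regions. Of the 13 regions, 11 lay in the Gata2 window and 2 in the Gata3 window.

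Visceral progenitors were represented by 2 libraries, VAT 1 and VAT 2, and subcutaneous progenitors by 2 libraries, SAT 1 and SAT 2. All cells were freshly isolated and untreated, from C57BL/6 mice aged 16 weeks. Nothing in the labels names the sort or gate, or tells whether animals were pooled or whether libraries of a depot came from separate mice, so the spread between libraries may be technical. The lists held 56907 peaks in VAT 1 and 62279 in VAT 2, against 56823 in SAT 1 and 22845 in SAT 2. SAT 2 thus had by far the shortest list, and a library with fewer peaks overall has fewer in a window on average. No read counts come with the lists. The depth is therefore unknown, and absence of a peak is not evidence of closed chromatin. Each peak carries the authors' score, a whole number of 20 or more whose scale is not given. The score is compared between libraries only as a percentile within its own list, where a higher percentile is a stronger peak. Genes that mark progenitors or other cell types could not be placed on mm9 without an annotation of that build, so the labelled cell type was not checked.

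GATA factors bind the DNA motif that gave them their name through a pair of zinc fingers. In mouse preadipocytes, Gata2 and Gata3 are known to hold back adipocyte differentiation. They repress Pparg, the master regulator gene of fat cell formation, and interact with C/EBP proteins, and their levels drop as preadipocytes mature. Both genes are also known from other cells of fat tissue: Gata2 from endothelial cells, mast cells and blood progenitors, Gata3 from T cells and type 2 innate lymphoid cells. In the RefSeq gene table, which follows build GRCm38, the nearest protein-coding genes beside Gata2 were Rpn1, a subunit of the oligosaccharyltransferase, and Dnajb8, a co-chaperone. Those beside Gata3 were Celf2, an RNA-binding protein, and Taf3, a subunit of the TFIID complex. Because the builds differ, no peak was assigned to a gene, an exon or an intron, and peaks in a window may belong to a neighbour.

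The promoter sequences are shown because they hold the start sites of both genes. RefSeq (GRCm38.p6) lists 2 start sites for Gata2, on the plus strand of chromosome 6, and 1 for Gata3, on the minus strand of chromosome 2. Each sequence runs 5′ to 3′ from 250 bases before to 50 bases after the start, and capitals mark GATA on either strand (GATA or TATC).
Gata2 start site 1: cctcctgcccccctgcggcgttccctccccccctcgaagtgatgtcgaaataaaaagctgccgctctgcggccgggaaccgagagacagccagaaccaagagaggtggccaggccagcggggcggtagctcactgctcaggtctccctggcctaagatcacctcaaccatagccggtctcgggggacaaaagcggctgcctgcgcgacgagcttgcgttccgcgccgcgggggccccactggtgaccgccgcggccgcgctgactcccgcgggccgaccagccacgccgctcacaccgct
Gata2 start site 2: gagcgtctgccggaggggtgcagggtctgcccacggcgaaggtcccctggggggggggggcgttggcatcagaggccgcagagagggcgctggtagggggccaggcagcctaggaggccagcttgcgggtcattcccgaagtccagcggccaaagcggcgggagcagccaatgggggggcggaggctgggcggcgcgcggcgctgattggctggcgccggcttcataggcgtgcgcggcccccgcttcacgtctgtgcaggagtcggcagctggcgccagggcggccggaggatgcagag
Gata3: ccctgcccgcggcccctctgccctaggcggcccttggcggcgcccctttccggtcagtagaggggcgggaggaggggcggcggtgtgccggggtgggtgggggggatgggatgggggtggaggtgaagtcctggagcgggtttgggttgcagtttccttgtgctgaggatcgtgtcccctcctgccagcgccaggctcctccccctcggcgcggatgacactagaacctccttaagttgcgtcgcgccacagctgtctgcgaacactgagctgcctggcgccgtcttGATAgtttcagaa
These promoters were rich in G and C, at 69.3% for Gata2 start site 1, 73.7% for Gata2 start site 2 and 67.3% for Gata3. The median over the 32851 promoters in the table was 52.7%. Their CpG dinucleotides numbered 32, 29 and 22, against a median of 7. The Gata3 promoter held 1 GATA match, at base 288, and neither Gata2 promoter held any, while 57.9% of all promoters in the table held at least 1. A match in letters is a description and not a binding site, and it could not be tested whether a peak covers any of these sequences.

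The Gata2 window held more peaks in both visceral libraries than in either subcutaneous library. There were 7 peaks in VAT 1 and 10 in VAT 2, against 5 in SAT 1 and 2 in SAT 2. The depots did not overlap, with a mean of 8.50 ± 2.12 peaks in VAT and 3.50 ± 2.12 in SAT (SD, n = 2 each). Both visceral counts exceeded both subcutaneous ones in 14.5% of all 13195 tiles of 200 kb into which the genome was divided. Of these tiles, 23.2% held no region, and a tile without peaks cannot show this order. The share among tiles with peaks is therefore higher. A two-sided exact permutation test gave p = 0.33, which is the lowest p obtainable from 2 libraries a depot. Without SAT 2 the difference was 3.50 peaks, with the same VAT mean against 5 peaks in SAT 1. In such bulk libraries, fewer cells with an open site and less opening per cell cannot be told apart. Scaled to the length of its list, the window held 1.23 peaks per 10000 in VAT 1 and 1.61 in VAT 2, against 0.880 in SAT 1 and 0.876 in SAT 2. The scaled difference was 0.540 peaks per 10000 (means 1.42 ± 0.27 in VAT and 0.878 ± 0.003 in SAT, SD, n = 2 each, exact permutation p = 0.33). The same order of scaled counts was found in 8.16% of all tiles, those without peaks included. Without SAT 2 the scaled difference was 0.538. With each list restricted to its 22845 highest scores, the window kept 1 peak in VAT 1 and 4 in VAT 2, against 2 in SAT 1 and 2 in SAT 2, and the depots overlapped. Peaks covered 1727 bp in VAT 1 and 2517 bp in VAT 2, against 1416 bp in SAT 1 and 341 bp in SAT 2. The difference of means was 1244 bp (two-sided exact permutation p = 0.33). Covered length comes from the same peaks and is not a separate depot difference. How many tiles show this order of covered length was not computed.

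The Gata3 window held few peaks in every library. There were 2 in VAT 1 and 1 in VAT 2, against 3 in SAT 1 and 1 in SAT 2, so the depots overlapped. The mean was 1.5 ± 0.71 peaks in VAT and 2.00 ± 1.41 in SAT (SD, n = 2 each, two-sided exact permutation p = 1.0). Scaled to list length the window held 0.352 peaks per 10000 in VAT 1 and 0.161 in VAT 2, against 0.528 in SAT 1 and 0.438 in SAT 2, lower in both visceral libraries (difference -0.227, exact permutation p = 0.33). Both visceral values were below both subcutaneous ones in 12.0% of all 11995 tiles of 220 kb, of which 22.0% held no region. The difference was -0.272 without SAT 2. With lists of equal length it was 0, since every library then kept 1 peak. These rates stand on 1 to 3 peaks a library. Covered length was 920 bp in VAT 1 and 588 bp in VAT 2, against 1124 bp in SAT 1 and 353 bp in SAT 2.

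**Figure D1:**
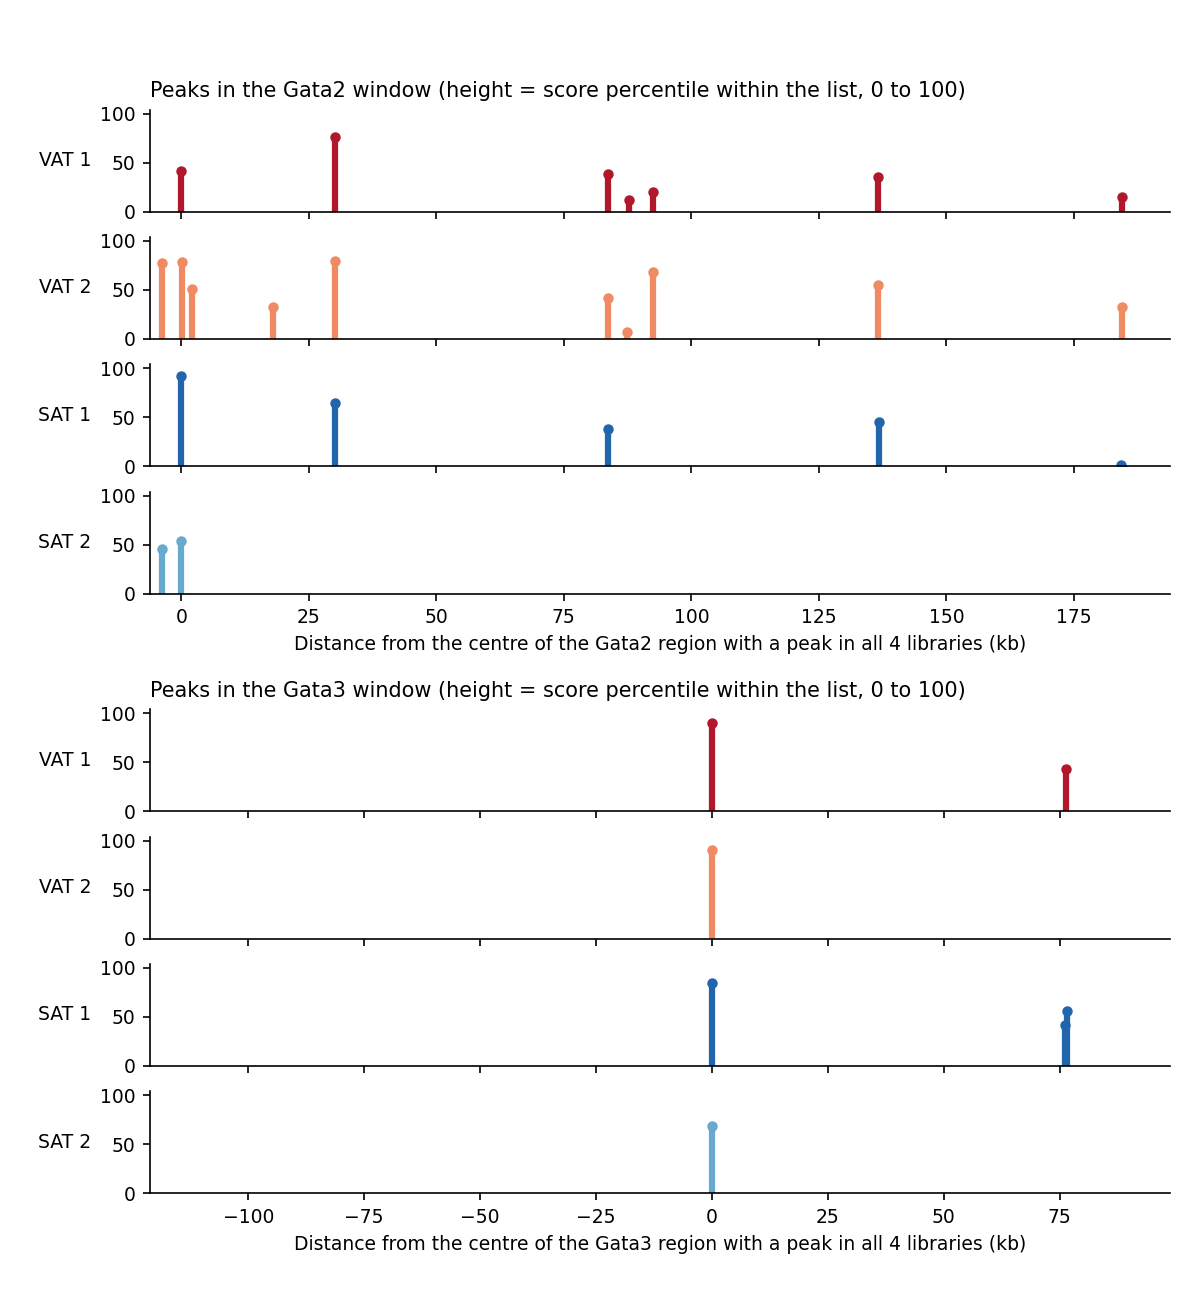
Peaks in the Gata2 window (upper panels) and the Gata3 window (lower panels) in each library, with distance from the region shared by all 4 libraries in kb on the x axis and the score percentile within the list as height. VAT 2 has the most Gata2 peaks (10) and SAT 2 the fewest (2), while the Gata3 window has 1 strong peak at the centre in every library and a weaker site to its right in VAT 1 and SAT 1 only.

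Set beside the rest of the genome, the Gata2 window was above the middle and the Gata3 window below it. The tiles had the length of the window and ran up to the last region of each chromosome. Tiles without any region were included, at 23.2% of those of 200 kb and 22.0% of those of 220 kb. The 11 regions of the Gata2 window compare with a median of 4 over 13195 tiles of 200 kb, and 76.2% of tiles held fewer. The 2 regions of the Gata3 window compare with a median of 4 over 11995 tiles of 220 kb, and 33.1% of tiles held fewer. By library, the Gata2 window held more peaks than 73.5% of tiles in VAT 1 and 81.4% in VAT 2, against 63.8% in SAT 1 and 63.7% in SAT 2. The Gata3 window held more peaks than 41.4% of tiles in VAT 1 and 27.8% in VAT 2, against 48.7% in SAT 1 and 46.3% in SAT 2. The Gata2 window thus exceeded the median tile in every library, and the Gata3 window was at or below it in every library.

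**Figure D2:**
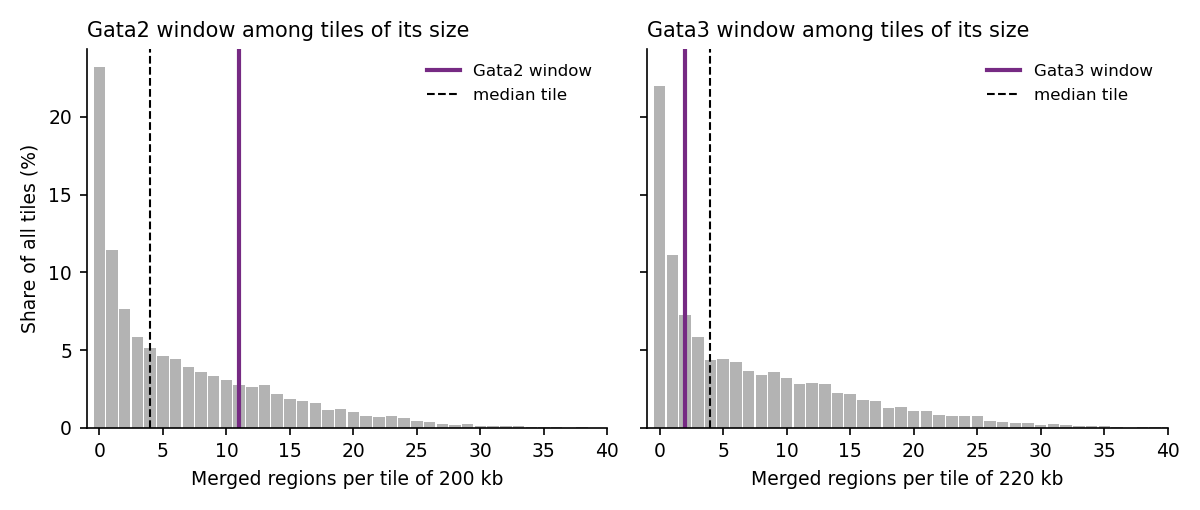
Share of all genome tiles (%, y axis) by number of merged regions per tile (x axis, shown up to 40), with the window's own count as a solid line and the median tile as a dashed line. The Gata2 window (11 regions) stands to the right of the median of 4, and the Gata3 window (2 regions) to the left of it.

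In the Gata2 window, regions are numbered from 1 to 11 along chromosome 6. Region 2, at chr6:88055924-88056379, was the only one of the 11 with a peak in all 4 libraries, a pattern held by 23.2% of the 83319 regions of the genome. Its score percentile was 41.4 in VAT 1 and 78.5 in VAT 2, against 91.6 in SAT 1 and 53.2 in SAT 2. The depots overlapped here, and the highest and the lowest value came from the libraries with replicate number 1. With lists of equal length VAT 1 kept no peak and VAT 2 stood at 41.3, against 79.2 in SAT 1 and 53.2 in SAT 2. A missing peak is not a low value, so no separation of the depots is read from these values. How many other regions show this order was not computed. The mean was 59.9 ± 26.2 in VAT and 72.4 ± 27.1 in SAT (SD, n = 2 each), a difference of -12.5 percentile points, smaller than the spread within either depot. Among the 19350 regions with a peak in all 4 libraries, the median difference was 10.4, and 2.16% had a lower one.

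The contrast at region 2 between VAT 1 and SAT 1 was among the most negative of the 19350 regions with a peak in all 4 libraries (common regions). Other regions with a peak in both VAT 1 and SAT 1 were not ranked. VAT 1 scored 90 (rank 32631 of its list) and SAT 1 scored 293 (rank 4737). The percentile difference of VAT 1 minus SAT 1 was -50.2, whereas the median over the common regions was -0.079 and the values at their 5th and 95th percentiles were -23.3 and 22.3. A lower difference was found in 0.326% of common regions. However, VAT 1 and SAT 1 hold the lowest and the highest value of region 2, and no other pair of libraries was ranked. The share of such an extreme pair does not measure how unusual the region is. VAT 2 stood above SAT 2 at the same region on the full lists, but below it with lists of equal length. On the full lists the median percentile of common regions was itself 83.5 in VAT 2 and 55.6 in SAT 2, a gap of similar size. The peaks also differed in extent: they were 309 bp in VAT 1 and 338 bp in VAT 2, against 451 bp in SAT 1 and 137 bp in SAT 2. All 4 shared a core of 129 bp at 88056042 to 88056170, against a median core of 203 bp in the 16088 common regions with 1 peak per library.

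Region 5, at chr6:88085970-88086483, was the widest of the window with 514 bp and held the strongest Gata2 peak of both visceral libraries. Its percentile was 75.7 in VAT 1 and 80.0 in VAT 2, against 64.4 in SAT 1 and no peak in SAT 2. Both visceral values were above that of SAT 1, the only subcutaneous value. How often regions with a peak in every library except SAT 2 show this order was not computed. A further 3 regions had the same pattern, which makes 4 of 11 with a peak in every library except SAT 2, against 19.5% of all regions. Region 6, at chr6:88139567-88139916, was nearly level, with 37.9 in VAT 1 and 41.7 in VAT 2, against 37.7 in SAT 1. Region 10, at chr6:88192682-88192946, had 35.4 in VAT 1 and 55.0 in VAT 2, and SAT 1 stood between them with 45.2. Region 11, at chr6:88240428-88240784, was weak, with 15.2 in VAT 1 and 32.7 in VAT 2, against 1.53 in SAT 1. In region 11 the peaks of VAT 1 and SAT 1 did not touch each other and were joined by the peak of VAT 2. Among the 16206 regions of this pattern, the mean percentile of region 5 was above 92.8% and that of region 11 above 3.30%.

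Region 9, at chr6:88148536-88148878, was the only depot-restricted region in either window, with a peak in both visceral and in no subcutaneous library. Its score was 61 in VAT 1 and 150 in VAT 2, and its percentile 19.7 in VAT 1 and 67.8 in VAT 2. The visceral libraries differed widely from each other here, and the VAT 1 peak of 105 bp lay inside the 343 bp of the VAT 2 peak. This was 1 of 11 regions in the Gata2 window and 0 of 2 in the Gata3 window, against 4.60% of all regions. None of the regions in either window was restricted to SAT, against 0.110% of all regions. A count of 1 is too small to set apart from these background shares. It was lost with lists of equal length and in the top 50% of each list, where the VAT 1 peak no longer ranked, and under 50% reciprocal overlap.

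Region 1, at chr6:88052103-88052408, had a peak in both libraries with replicate number 2 and in neither with number 1. Its percentile was 77.7 in VAT 2 and 45.2 in SAT 2. With lists of equal length the order turned, with 39.1 in VAT 2 and 45.2 in SAT 2. This pattern was held by 1 of 11 Gata2 regions, against 0.652% of all regions, and a count of 1 is too small to set apart from that share. The mean percentile of region 1 was above that of 90.4% of the 543 regions that share the pattern. Region 1 was also 1 of only 2 sites that SAT 2 had in the window, the other being region 2, which lay 3.52 kb away.

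A further 4 regions of the Gata2 window had a peak in a single library, and in each case that library was visceral, as it was in 77.5% of all 30319 single-library regions of the genome. VAT 2 alone had regions 3, 4 and 7, which is 3 of 11 against 19.6% of all regions. VAT 1 alone had region 8, which is 1 of 11 against 8.58%. Their percentiles were 50.5 for region 3, 32.7 for region 4, 6.82 for region 7 and 11.4 for region 8. Regions 7 and 8 lay 200 bp apart, in VAT 2 at 88143460 to 88143641 and in VAT 1 at 88143842 to 88143969, and were joined into a second visceral-restricted region when peaks within 500 bp were merged.

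**Figure D3:**
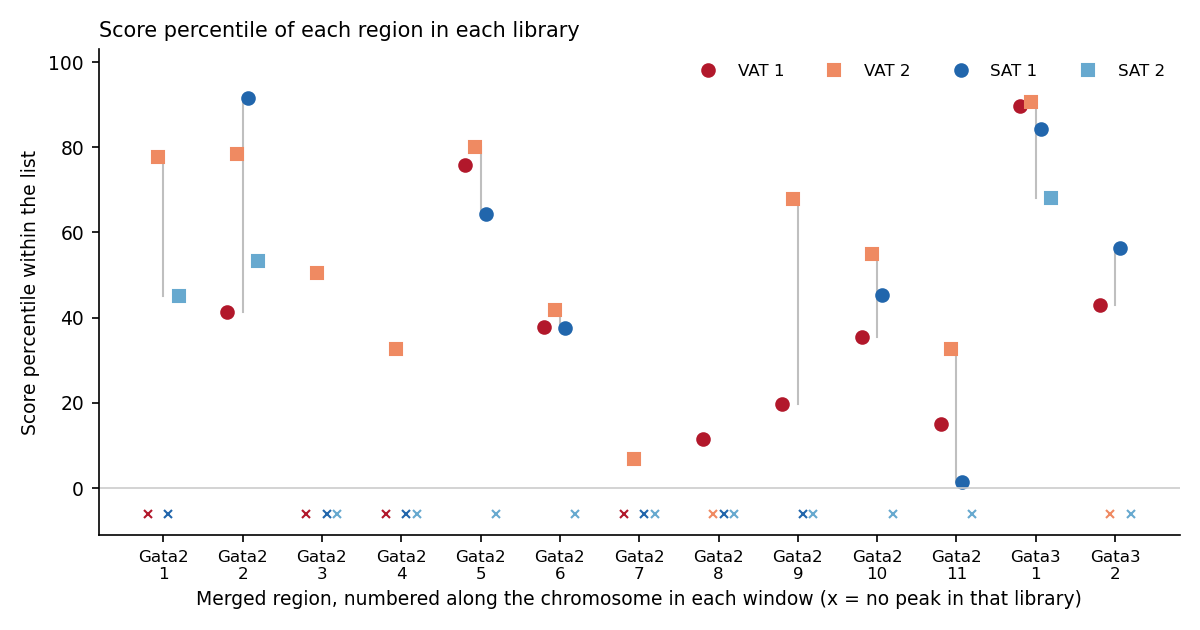
Score percentile within the list (y axis) of each merged region (x axis, numbered along the chromosome in each window) in the 4 libraries, with a cross below 0 where a library has no peak and a grey line from the lowest to the highest value. Gata2 region 2 and Gata3 region 1 have 4 values each, and SAT 2 has a cross at every Gata2 region except 1 and 2.

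Along the Gata2 window, the regions fell into groups separated by stretches with no peak in any library. Regions 1 to 5 lay near the lower end of the window. A stretch of 53.1 kb followed, longer than 88.3% of the gaps between neighbouring regions in the genome, whose median was 9.32 kb. Regions 6 to 9 then formed a group in which the gaps were 3.54 kb, 200 bp and 4.57 kb. Regions 10 and 11 stood apart, after gaps of 43.8 kb and 47.5 kb. Just outside the window, the nearest region on the lower side, at 88034241 to 88034716, had a peak in all 4 libraries, with percentiles of 86.7 in VAT 1 and 94.9 in VAT 2, against 72.2 in SAT 1 and 76.0 in SAT 2. On the upper side the nearest, at 88311223 to 88311319, was found only in SAT 1, with a percentile of 45.2. Inside the limits, the outermost regions were 1 and 11.

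Gata3 region 1, at chr2:9800905-9801492, was the strongest site of either window in every library except SAT 1. It had a peak in all 4 libraries. Its raw score, not comparable between lists, was 305 in VAT 1, 322 in VAT 2, 227 in SAT 1 and 121 in SAT 2. Its percentile was 89.7 in VAT 1 and 90.7 in VAT 2, against 84.3 in SAT 1 and 68.2 in SAT 2. Both visceral values were higher than both subcutaneous ones, and so also higher than SAT 1 alone, but this also held for 32.7% of the 19350 common regions of the genome. The mean was 90.2 ± 0.68 in VAT and 76.2 ± 11.4 in SAT (SD, n = 2 each). The difference of 13.9 percentile points lay near the median of 10.4 over common regions, and 59.9% of them had a lower one.

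At Gata3 region 1, both visceral values also stood above both subcutaneous ones with lists of equal length, while SAT 1 and SAT 2 exchanged places. Its percentile was then 74.3 in VAT 1 and 74.5 in VAT 2, against 60.9 in SAT 1 and 68.2 in SAT 2. With such lists 15.8% of the 13315 common regions had both visceral values above both subcutaneous ones. The peaks were 346 bp in VAT 1 and 588 bp in VAT 2, against 555 bp in SAT 1 and 353 bp in SAT 2, and all 4 shared a core of 297 bp at 9801146 to 9801442. The region was thus not wider in one depot. At 588 bp it was wider than 59.9% of common regions, whose median was 524 bp.

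Gata3 region 2, at chr2:9877238-9877948, had peaks in both libraries with replicate number 1 and in neither with number 2, a pattern held by 9.37% of all regions. VAT 1 had 1 peak of 574 bp with a percentile of 43.1. SAT 1 had 2 peaks there, of 386 bp with a percentile of 42.2 and of 183 bp with a percentile of 56.3, both overlapped by the peak of VAT 1. These ranks were near the middle of either list. With lists of equal length no library kept a peak in region 2, and the Gata3 window held region 1 alone.

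**Figure D4:**
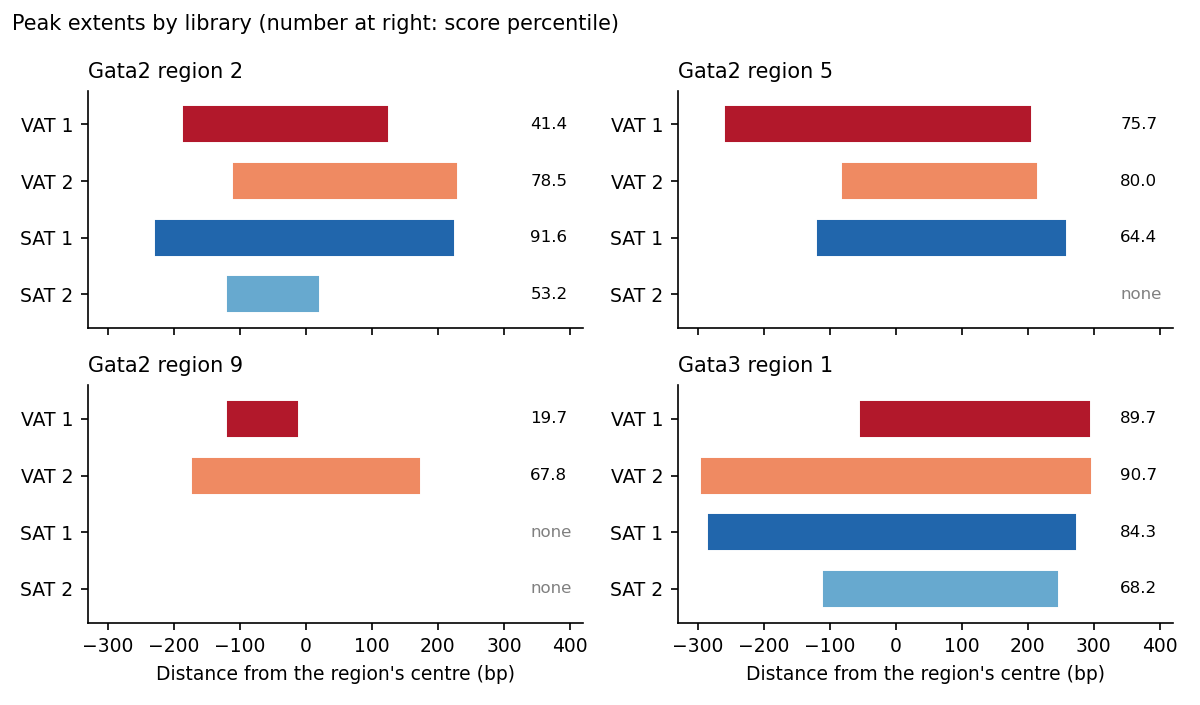
Extent of the peaks in 4 regions, as distance from the region's centre in bp (x axis) in each library (rows), with the score percentile at the right. Gata3 region 1 has a shared core of 297 bp in all 4 libraries, Gata2 region 2 one of 129 bp, and Gata2 region 9 has a peak of 105 bp in VAT 1 inside one of 343 bp in VAT 2.

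Around Gata3 region 1 the window was empty over long stretches. No library had a peak in the 128.9 kb before it, back to a region at 9671545 to 9672005 just outside the window, and that gap was longer than 95.9% of gaps in the genome. The outer region had a peak in all 4 libraries, with percentiles of 57.5 in VAT 1 and 76.2 in VAT 2, against 71.1 in SAT 1 and 35.7 in SAT 2. Another 75.7 kb separated regions 1 and 2, longer than 92.3% of gaps. Just beyond the upper limit, a region at 9907678 to 9908129 had peaks in VAT 1, with a percentile of 29.1, and in SAT 1, with 66.3. It shared with region 2 the pattern of replicate number 1.

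Between the windows, Gata2 had more and weaker peaks and Gata3 fewer and stronger ones. The median percentile of the peaks in the Gata2 window was 35.4 in VAT 1 and 52.7 in VAT 2, against 45.2 in SAT 1 and 49.2 in SAT 2. In the Gata3 window it was 66.4 in VAT 1 and 90.7 in VAT 2, against 56.3 in SAT 1 and 68.2 in SAT 2. It was higher for Gata3 than for Gata2 in each of the 4 libraries, with no test, since the Gata3 medians stand on 1 to 3 peaks. Between depots, the median percentile in the Gata2 window averaged 44.1 ± 12.2 in VAT and 47.2 ± 2.8 in SAT (SD, n = 2 each, two-sided exact permutation p = 1.0). In the Gata3 window it averaged 78.5 ± 17.2 in VAT and 62.2 ± 8.4 in SAT (SD, n = 2 each, exact permutation p = 0.667).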

How the data were processed

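The 4 deposited files are peak lists, 1 per library, made by the authors. The submitters' processing notes name Bowtie2, MACS2 and mm9. For versions, options, duplicate reads and the offset of transposase cuts, the record is: not given in the sources used here. The score is deposited as a whole number per peak and was turned into a percentile (average rank over list length). Raw scores are printed for some regions, but comparisons between lists rest on the percentiles.

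Peaks sharing at least 1 bp were merged over all lists, and the merging gave the same regions as bedtools 2.31.1. It also recovered known patterns on simulated lists. Those held well separated regions with at most 1 peak per library, so close or bridged peaks were not covered by the simulation. For a region with several peaks of a library, the strongest counts. Window values were compared by two-sided exact permutation tests. No p was computed over regions, which are not replicates. Background shares cover all 83319 regions unless another base is named, such as common regions, single-library regions, regions of the same pattern, gaps or tiles. Intervals need read counts and are not given. Python 3.11.15, numpy 2.4.6, pandas 2.3.3 and scipy 1.17.1 were used.

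The windows, lists and rules were chosen with earlier results of these data known. Regions were named by a fixed rule: the 6 with the highest mean percentile in each window, the strongest and widest, and all that follow depot or replicate number; the other 5 Gata2 regions were described after their values were seen. Other genes of the adipogenic pathway, markers and motifs in peaks need an mm9 annotation or sequence and were not analysed here.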

Additional observations from a re-analysis of the deposited data

How the results depend on the processing

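The exact permutation test on 2 libraries a depot cannot go below p = 0.33, so its p-values say nothing about stability. With 1 library left out, a difference between non-overlapping depots cannot reverse. The Gata2 peak excess in VAT (main 5.0) was then 3.50 to 6.50. It was only 0.50 with lists of equal length and 1.5 in the top 50% of each list. The Gata2 difference per 10000 list peaks (main 0.540) ranged from 0.352 to 0.728 without 1 library. It fell to 0.219 with equal lengths and 0.189 in the top 50%. With the window extended by 50 kb it was 0.343 (exact permutation p = 0.667). The Gata2 median percentile difference of -3.14 was -7.40 with equal lengths, -18.1 with the extended window and 22.1 in the top 50%. Without 1 library it ranged from -11.8 to 5.51, positive only without VAT 1. The Gata3 peak number difference of -0.50 was 0 with equal lengths and 1.0 with the window extended by 50 kb and ranged from -1.5 to 0.50 without 1 library, positive only without SAT 1. The Gata3 difference per 10000 peaks (-0.227) was 0 with equal lengths and -0.453 in the top 50%, -0.110 with the extended window, and ranged from -0.322 to -0.131 without 1 library. That of the Gata3 median percentile (16.3) was 9.86 with equal lengths, 41.9 in the top 50% and 2.17 with the extended window, and ranged from 4.15 to 28.4 without 1 library. Causes were not tested, except that fewer libraries or peaks change the counts by construction.

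Gata2 regions with a peak in all libraries (1) numbered 0 with equal lengths, 0 in the top 50%, 0 under 50% reciprocal overlap, 3 with the extended window, and 1 to 5 without 1 library, the 5 being without SAT 2. Gata3 regions with a peak in all libraries (1) numbered 2 with the extended window. Gata2 regions restricted to VAT (1) numbered 0 with equal lengths, 0 in the top 50%, 0 under 50% reciprocal overlap, 2 with merging within 500 bp, and 1 to 5 without 1 library: 4 without VAT 1, 3 without VAT 2, 5 without SAT 1 and 1 without SAT 2.

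The replicate numbers are not stated to mark shared animals or batches, and with 2 pairs they were not taken to pair the libraries. Deviations of same-numbered libraries from their depot means had a Pearson r of 0.288 over all 83319 regions. A missing peak counted as 0 there, so the value mixes presence of peaks with their strength. With the replicate block the Gata2 difference in peak number was 5.0 (exact sign-flip p = 0.5, the lowest obtainable from 2 pairs). All differences keep their values under this block by construction, since the mean difference within numbers equals the difference of depot means. The block therefore says nothing about stability. Depth is unknown, so weak peaks missing from SAT 2 cannot be told from peaks not detected.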
